A study of Mus musculus with 4 samples.

Results

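Nduf genes encode the nuclear subunits of mitochondrial respiratory complex I and a set of its assembly factors. They were taken as every protein-coding gene of the mouse RefSeq gene table (assembly GRCm38.p6, the same primary chromosomes as mm10) with a symbol that starts with Nduf, which gave 49 of 21887 genes. Of these, 41 are subunits or subunit-like genes and 8 are assembly factors (Ndufaf). The data are ATAC-seq peak lists of pachytene spermatocytes purified from mouse testis. ATAC-seq marks open chromatin by where the Tn5 transposase can cut, and pachytene spermatocytes are meiotic cells whose homologous chromosomes are fully paired. The genotypes are labelled Znhit1_KO and CTRL, each with 2 libraries tagged P35, and 1 peak list per genotype was analysed. ZNHIT1 is a subunit of the SRCAP remodeller, which loads the histone variant H2A.Z. The sources used here do not give the allele, any Cre driver, the strain, the number of animals behind a library, or whether a list was called on 1 library or on pooled ones. The libraries without a list were not analysed here.

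Complex I is the entry point of the respiratory chain. It takes electrons from NADH through a flavin and a chain of iron-sulfur clusters in its matrix arm, passes them to ubiquinone, and pumps protons through its membrane arm. The catalytic core is split between nuclear and mitochondrial genes, accessory subunits surround it, and assembly factors build it in modules and then leave. Spermatocytes in the adluminal compartment of the seminiferous tubule take up lactate supplied by Sertoli cells, which makes oxidative phosphorylation prominent in these cells.

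After repeated lines were counted once, the knockout list held 21004 intervals and the control list 15376, with median widths of 352 and 427 bp. The lists carry no height or score, and the sources used here do not give the depth behind them, so a peak missing from the shorter list is not shown to be a closed site. With 1 list per genotype, differences between genotypes have no replicate check and no p-value. All 8 pachytene markers, among them Sycp1, Sycp3, Piwil1 and Ddx4, had a peak in both lists. None of 5 spermatid, 4 Sertoli and 3 immune and endothelial markers had one in either list, and of 4 Leydig and peritubular markers 1, Acta2, had one in the knockout list. Neither list held an interval on mitochondrial DNA, where the remaining core subunits are encoded.

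Most complex I genes had open chromatin at a gene end in both genotypes, and no member had it in the control list alone. A gene was counted as open in a list when an interval reached to within 1 kb of its start or its end. By this rule 36 of 49 members (73.5%, Wilson 95% interval 59.7 to 83.8) were in both lists, against 28.6% of all protein-coding genes. Another 7 (14.3%, 7.10 to 26.7) were in the knockout list alone, against 9.81% of all genes. Among genes with a peak in at least 1 list, these were 7 of 43 members and 2147 of 9421 genes. By that count the share of the members was the lower one. The control list alone held 0 of 49 (upper bound of the interval 7.27%), against 4.66% of all genes, and 6 members (12.2%) were in neither list, against 57.0%. The interval around the 0 of 49 includes the share of all genes. These intervals cover counting error only. The absence of control-only members did not hold under other settings: with intervals listed at least 2 times there were 9 (18.4%, against 6.56% of all genes), and with those at least 300 bp wide there were 3 (6.12%, against 4.57%, which is near it).

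**Figure D1:**
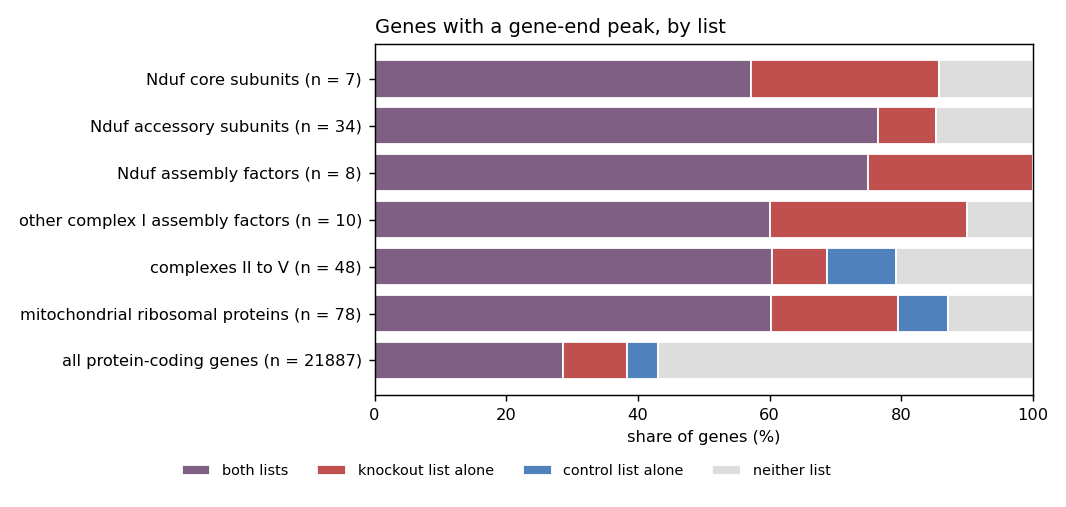
Share of genes (%) with a gene-end peak in both lists, the knockout list alone, the control list alone or neither, for complex I genes by role, other assembly factors, complexes II to V, mitochondrial ribosomal protein genes and all protein-coding genes. None of the complex I bars has a control-only segment, while 5 of 48 genes of complexes II to V and 6 of 78 mitochondrial ribosomal protein genes fall there. Of all protein-coding genes 4.66% do, and the 0 of 49 Nduf genes cannot be told from that share. The 0 also did not hold under other settings.

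The shares of subunits and assembly factors in both lists were close. Of 41 subunits, 30 (73.2%, Wilson interval 58.1 to 84.3) were in both lists, 5 (12.2%) in the knockout list alone and 6 (14.6%) in neither. Of 8 assembly factors, 6 (75%, 40.9 to 92.9) were in both and 2 (25%) in the knockout list alone, so every assembly factor had a peak in at least 1 list. With 8 genes the interval of the assembly factors spans that of the subunits, and a difference between these groups was not detectable.

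In the catalytic core Ndufv1, Ndufv2, Ndufs1 and Ndufs8 were in both lists, and Ndufs3 and Ndufs7 were in the knockout list alone. Ndufv1 encodes the flavoprotein that binds NADH, and its peak was 833 bp wide in the knockout list (chromosome 19, 4012435 to 4013267) and 721 bp in the control list (4012328 to 4013048). Ndufv2, its iron-sulfur partner, had peaks of 842 and 938 bp that ended at the same base on chromosome 17 (66101172 to 66102013 and 66101076 to 66102013). Ndufs1, the large iron-sulfur subunit, had 1100 bp in the knockout list and 529 bp in the control list, at an end of the gene that it shares with Eef1b2. Ndufv1, Ndufv2 and Ndufs1 belong to the NADH-oxidising tip, and a difference between the tip and the path to ubiquinone was not tested.

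Of the core subunits that line the path to ubiquinone, Ndufs8 was in both lists, with peaks of 741 bp (knockout) and 1018 bp (control). Ndufs7, which carries the last iron-sulfur cluster before ubiquinone, stood in the knockout list alone, with an interval of 754 bp (chromosome 10, 80248969 to 80249722) listed 3 times. Ndufs3 was also open in the knockout list alone, with a narrow interval of 213 bp (chromosome 2, 90904618 to 90904830). That interval stood on 1 line of the list and also lay at an end of Kbtbd4. Ndufs3 was in neither list with intervals at least 300 bp wide or listed at least 2 times. The same held with equal numbers of the widest intervals.

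Accessory subunits form the shell of the complex, and 26 of 34 were in both lists. Among the Ndufa genes 11 of 14 were in both, among the Ndufb genes, which belong to the membrane arm, 10 of 13, and of the Ndufc pair Ndufc1 (687 and 698 bp) alone. Ndufab1, the mitochondrial acyl carrier protein, which is also used in lipoic acid synthesis, had peaks of 545 and 634 bp. Ndufa13, also known as GRIM-19, had 1 control peak of 668 bp and 2 knockout peaks, of 551 bp at its start and of 760 bp further upstream. Ndufa4, first described in complex I and since assigned to cytochrome c oxidase, had knockout peaks of 516 and 380 bp that both overlapped 1 control peak of 723 bp. Ndufs4, at 100300 bp one of the long genes of the family, had peaks of 597 and 621 bp, and Ndufv3 had peaks of 511 and 510 bp.

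The assembly factors in both lists carried some of the widest peaks of the family. Ndufaf8 had 1060 bp in the knockout list and 1163 bp in the control list, the latter being the widest control peak of any member. It works with Ndufaf5, which hydroxylates Ndufs7 and had peaks of 829 and 507 bp. Ndufaf2, a paralogue of the accessory subunit Ndufa12, had 879 bp and 1140 bp, and the control interval stood on 4 lines of its list. Ndufaf3 and Ndufaf4 act as a pair. Ndufaf3 had 1112 and 1016 bp, with an additional knockout peak of 332 bp, and Ndufaf4 had 382 and 605 bp. Ndufaf7, an arginine methyltransferase, had 528 and 724 bp. Widths in the knockout list were below those in the control list at 4 of these 6 genes. At all of them but Ndufaf4 a peak also lay at an end of another protein-coding gene, so its width cannot be assigned to the assembly factor alone. This held for 83.3% of assembly factors with a control peak, against 46.7% of such subunits. In the knockout list the shares were 62.5% and 51.4%.

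The 7 genes in the knockout list alone comprised 2 core subunits, 3 accessory or subunit-like genes and 2 assembly factors. Ndufs7 (754 bp) had the widest peak, followed by Ndufa4l2 (563 bp), the hypoxia-induced relative of Ndufa4, at an end shared with Stac3. Ndufaf1, which acts in the assembly of the membrane arm, had 503 bp (chromosome 2, 119662442 to 119662944), and Ndufaf6 427 bp (chromosome 4, 11075858 to 11076284). Ndufs6, an accessory subunit of the matrix arm, had 280 bp and shares its peak with the mitochondrial ribosomal gene Mrpl36. Ndufb4c, a gene of 485 bp, had 266 bp inside the gene. In the control list the nearest interval to these genes lay between 7941 bp (Ndufs7) and 97323 bp (Ndufs6) away, so no control interval stood just beyond the window. Ndufs7 and Ndufa4l2 were in the knockout list alone under every alternative that could be applied to them. Only these 2 of the 7 had an interval listed more than once, whereas 23 of the 36 knockout peaks of genes in both lists did. The peaks of Ndufs3, Ndufs6 and Ndufb4c were under 300 bp wide. At 300 bp or more the knockout list held 12847 intervals and the control list 11309, which is closer than 21004 to 15376 for all widths.

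Promoter bases of 3 of these genes are given to show the sequence under a knockout-only peak. Each is the stretch of 120 bases that ends just before the transcription start, 5′ to 3′ on the gene's strand (RefSeq, GRCm38.p6), with capitals for the letters of a searched motif. Ndufs7 lies at chr10:80249329-80249448 on the plus strand, Ndufs3 at chr2:90904722-90904841 and Ndufaf1 at chr2:119662835-119662954, both on the minus strand. In Ndufs7 the capitals mark a TATA word from -99 to -94, counting -1 as the base before the start and 1 as the first transcribed base. In Ndufs3 they mark 2 SP/KLF words, of which the second overlaps an ETS word from -27 to -21, and in Ndufaf1 a MYB word and an ETS word from -18 to -12.
Ndufs7: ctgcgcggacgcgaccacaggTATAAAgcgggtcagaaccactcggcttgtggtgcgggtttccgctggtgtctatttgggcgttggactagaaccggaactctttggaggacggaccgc
Ndufs3: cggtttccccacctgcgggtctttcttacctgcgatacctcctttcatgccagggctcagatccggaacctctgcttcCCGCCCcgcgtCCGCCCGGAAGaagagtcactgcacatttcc
Ndufaf1: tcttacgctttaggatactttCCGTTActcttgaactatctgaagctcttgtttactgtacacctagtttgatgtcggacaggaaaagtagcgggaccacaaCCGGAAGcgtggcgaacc

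The 6 genes in neither list included both X-linked members. Ndufa1 (chromosome X, 37187588 to 37191238) and Ndufb11 (chromosome X, 20615326 to 20617619) encode small subunits of the membrane arm. The nearest interval to Ndufa1 was 60691 bp away in the knockout list and 3770993 bp in the control list, and for Ndufb11 these distances were 344054 and 70437 bp. The X chromosome is transcriptionally silenced in pachytene spermatocytes. Of its 966 protein-coding genes, 89.6% were in neither list, against 54.9% of autosomal genes. Whether the silencing accounts for the missing peaks of Ndufa1 and Ndufb11 was not tested. On the autosomes 36 of 47 members (76.6%) were in both lists, against 30.1% of all autosomal protein-coding genes. Autosomal members in neither list included the accessory genes Ndufa3 and Ndufc2, and Ndufb4b, a gene of 471 bp. Ndufc2 had its nearest intervals at 28273 bp (knockout) and 25792 bp (control), and Ndufa3 at 24396 and 9374 bp. Ndufa1, Ndufb11, Ndufa3, Ndufc2 and Ndufb4b stayed in neither list under every alternative.

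The same stretch is given for 4 genes in neither list, to set beside the open ones. Ndufa1 lies at chrX:37191239-37191358 and Ndufb11 at chrX:20617620-20617739 (both minus strand), Ndufa3 at chr7:3617253-3617372 and Ndufc2 at chr7:97399883-97400002 (both plus strand). Capitals mark CCAAT words, read as ATTGG on this strand, in Ndufb11 and an SP/KLF word in Ndufa3. Over the whole 300-base promoter, Ndufa1 had a GC content of 60.7%, Ndufb11 56.3%, Ndufa3 51.3%, Ndufc2 47.3% and Ndufb4b 41.3%.
Ndufa1: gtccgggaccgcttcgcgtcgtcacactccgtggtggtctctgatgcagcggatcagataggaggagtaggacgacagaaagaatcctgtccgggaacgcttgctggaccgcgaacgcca
Ndufb11: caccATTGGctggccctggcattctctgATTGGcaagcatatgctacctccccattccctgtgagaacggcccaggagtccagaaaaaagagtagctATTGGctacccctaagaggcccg
Ndufa3: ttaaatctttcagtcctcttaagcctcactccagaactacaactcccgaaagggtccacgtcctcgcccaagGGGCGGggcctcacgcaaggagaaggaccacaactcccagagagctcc
Ndufc2: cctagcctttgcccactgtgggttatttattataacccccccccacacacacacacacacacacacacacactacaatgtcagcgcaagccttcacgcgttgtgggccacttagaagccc

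The peaks sat on the transcription starts. A promoter entry with a start and strand was found for 42 members. Members without one included Ndufa2, Ndufa4l2, Ndufaf6, Ndufb4c, Ndufb9 and Ndufs1. Of the 37 members with a knockout peak and a start, 36 (97.3%) had the start inside a peak, against 81.4% of all genes with a knockout gene-end peak. In the control list it was 33 of 33, against 79.9% of all genes. The exception was Ndufa9, an accessory subunit close to the quinone site, whose knockout peak of 367 bp began 173 bp downstream of the start, while its control peak of 715 bp ran from 264 bp upstream to 450 bp downstream. Peaks were about as long on either side of the start. Their median reach was 309 bp upstream and 328 bp downstream in the knockout list, and 292 and 336 bp in the control list. At a few genes the lists leaned to opposite sides: at Ndufa10 the control peak reached 915 bp upstream and 39 bp downstream, and the knockout peak 251 and 321 bp.

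**Figure D2:**
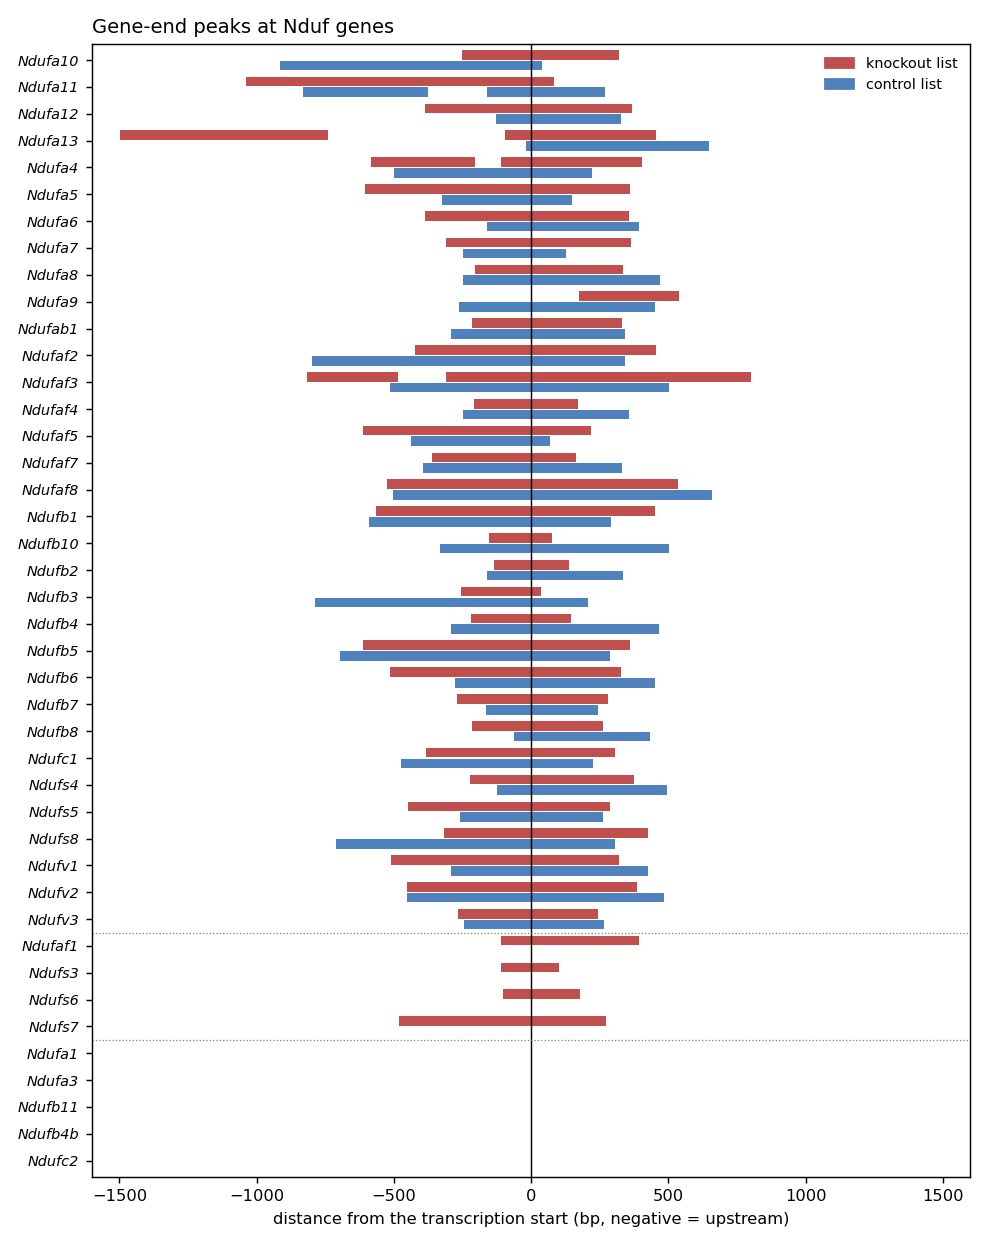
Gene-end peaks of the 42 Nduf genes with an annotated start, drawn by distance from the transcription start (bp), knockout list in red and control list in blue. Dotted lines part the genes in both lists (top), in the knockout list alone (Ndufaf1, Ndufs3, Ndufs6, Ndufs7) and in neither (5 genes), and the vertical line at the start runs through nearly all of the peaks. A second Ndufb6 knockout peak, 9415 to 9984 bp downstream, lies outside the axis.

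At all 36 genes in both lists the knockout and control peaks overlapped each other, as they did at 97.3% of the 6255 such genes in all. The overlap covered at least 50% of both peaks at 27 members (75%), against 5199 of the 6255 genes (83.1%). At the other 9 (Ndufa4, Ndufa5, Ndufa9, Ndufa10, Ndufa11, Ndufb3, Ndufb4, Ndufb10 and Ndufs1) no single pair of peaks overlapped by at least 50% of both. Ndufa4 had 2 knockout peaks and Ndufa11 had 2 control peaks. Their overlaps were not added up, so these genes can be listed because a peak was split.

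Peak widths of the family as a whole were close between the lists. Over the 36 genes in both lists the median of the widest peak was 711 bp in the knockout list and 683 bp in the control list, and the log2 width ratio, knockout over control, had a median of -0.04 (quartiles -0.46 and 0.43). The same over all 6255 genes in both lists was 758 bp, 714 bp and 0.04 (quartiles -0.29 and 0.40). The knockout peak was the wider one at 16 members (44.4%) and the control peak at 20, while over all genes in both lists it was the wider one at 3326 (53.2%) and the control peak at 2919. The widest peaks were compared even where they did not overlap each other, as at Ndufa13. Width ratios of single members reached in both directions: 22 of 36 members (61.1%) had widths within 1.5-fold of each other, against 71.4% of all genes in both lists, and 6 (16.7%) differed at least 2-fold, against 10.2%. Of these 6, Ndufa11 had 2 separate control peaks, of which only the wider one entered the ratio. When the 7 knockout-only genes were included, the median knockout width was 597 bp over 43 members.

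Among the members in both lists, the 3 narrowest knockout peaks were at Ndufb10, Ndufb2 and Ndufb3, which encode small subunits of the membrane arm. Of the members in the knockout list alone, Ndufs3 (213 bp) was narrower than all of these. The Ndufb10 peak measured 232 bp in the knockout list and 837 bp in the control list, a 3.61-fold difference, and Ndufb3 had 292 and 996 bp, a 3.41-fold difference. Ndufb4 had 364 and 759 bp, and Ndufb2 277 and 499 bp. At Ndufb10 the knockout peak reached 154 bp upstream and 77 bp downstream of the start, inside a control peak that reached 333 and 503 bp. Of the 10 Ndufb genes in both lists, 7 were wider in the control list. At the other end, Ndufa11 had 1125 bp in the knockout list, where the control list had separate peaks of 458 and 429 bp, Ndufs1 had 1100 and 529 bp, and Ndufa5 965 and 476 bp. Of the 11 Ndufa genes in both lists, 7 were wider in the knockout list. Among these, the widest knockout peak of Ndufa13 (760 bp) did not overlap its control peak (668 bp). The knockout peak at the start of Ndufa13 was the narrower one there, at 551 bp. The Ndufa and Ndufb genes were set apart after the widths were seen, and the difference between them was not tested.

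**Figure D3:**
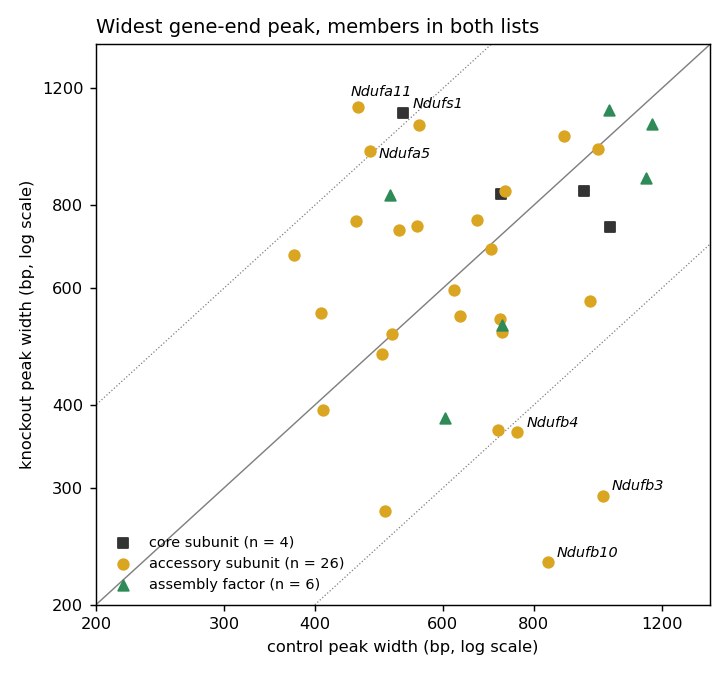
Width of the widest gene-end peak in the control list (horizontal) and the knockout list (vertical), both in bp on log scales, for the 36 Nduf genes in both lists, by role. The solid line marks equal widths and the dotted lines a 2-fold difference. The 6 named genes lie beyond 2-fold, Ndufb3, Ndufb4 and Ndufb10 on the control side and Ndufa5, Ndufa11 and Ndufs1 on the knockout side. At Ndufa11 the control list had separate peaks of 458 and 429 bp, and only the wider one is drawn.

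Many members shared a peak with a neighbour. At 23 of the 43 members with a peak (53.5%) a peak also lay at an end of another protein-coding gene, against 30.4% of the 9421 genes with a peak. Such a peak cannot be assigned to the Nduf gene alone. At Ndufb6 only the knockout peak of 570 bp away from the start was shared, and the peaks at its start were not. Of the 42 members with an annotated start, 13 (31.0%) faced another gene head to head, with starts on opposite strands at most 1 kb apart, against 7.52% of 17492 genes and 19.4% of the genes in both lists. The starts were 10 to 618 bp apart, with a median of 135 bp. Ndufa7 lay 10 bp from Rps28, a ribosomal protein gene, Ndufs3 19 bp from Kbtbd4, Ndufa11 63 bp from Vmac, Ndufaf5 88 bp from Esf1, and Ndufaf2 113 bp from the DNA repair gene Ercc8. Ndufb5 faced Mrpl47, a mitochondrial ribosomal gene, at 308 bp, and Ndufb1 faced Cpsf2, a pre-mRNA cleavage factor, at 236 bp. In each of the 13 pairs both genes fell into the same class. With starts this close and a window of 1 kb, a peak at either start mostly counts for both genes. The agreement was thus largely set by the counting rule, and no conclusion is drawn from it. The class was both lists in 12 pairs and the knockout list alone for Ndufs3 and Kbtbd4.

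The promoters of complex I genes lay near those of other open genes in CpG content. Over the 300 bases from 250 before to 50 after the start, the median GC content was 59.3% and the median ratio of observed to expected CpG 0.828, against 56.3% and 0.576 for 17492 genes and 62.7% and 0.837 for the 5202 genes in both lists. Words were searched on both strands with overlaps allowed. The SP/KLF word GGGCGG was in 21 of 42 promoters, against 46.3% of all genes and 71.0% of the genes in both lists. The ETS word CCGGAAG was in 6 (14.3%, against 11.9% and 23.3%), the CCAAT box in 14 (33.3%, against 39.0% and 42.8%), and TATAAA in 4 (9.52%, against 13.3% and 5.38%). The MYB word, read by factors such as the pachytene regulator A-MYB, was searched as CAACTG and as CAACGG, and with the first letter changed, as TAACTG and as TAACGG. It was in 15 (35.7%, against 26.4% and 25.4%). A word in a promoter is a match of letters and not a bound site.

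Other words known from promoters of respiratory genes were carried by a few members. The core of the site of NRF1 (nuclear respiratory factor 1), CGCATGCG, was in 4 promoters (9.52%, against 2.54% and 6.15%), namely Ndufa8, Ndufa11, Ndufaf4 and Ndufaf5. All 4 genes were in both lists, but so were 33 of the 42 members with a promoter entry, so this does not set them apart. The cyclic AMP response element TGACGTCA was in 3 (7.14%, against 2.34% and 4.38%), namely Ndufa10, Ndufa11 and Ndufb2. The stretches of 120 bases before the start that hold them follow, with all searched words in capitals. They are Ndufa11 (chr17:56717642-56717761, plus strand; NRF1 word from -59 to -52), Ndufaf4 (chr4:24897963-24898082, plus strand; NRF1 word from -112 to -105), Ndufa8 (chr2:36049339-36049458, minus strand; NRF1 word from -9 to -2), Ndufb2 (chr6:39592445-39592564, plus strand; response element from -14 to -7) and Ndufa10 (chr1:92473759-92473878, minus strand; response element from -67 to -60).
Ndufa11: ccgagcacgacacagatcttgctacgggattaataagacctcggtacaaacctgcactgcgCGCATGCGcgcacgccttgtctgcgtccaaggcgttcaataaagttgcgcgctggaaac
Ndufaf4: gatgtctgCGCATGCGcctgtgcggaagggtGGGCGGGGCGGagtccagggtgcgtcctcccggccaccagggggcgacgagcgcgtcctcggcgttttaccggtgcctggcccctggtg
Ndufa8: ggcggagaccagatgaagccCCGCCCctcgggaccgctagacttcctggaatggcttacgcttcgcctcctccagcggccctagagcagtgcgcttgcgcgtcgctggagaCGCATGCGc
Ndufb2: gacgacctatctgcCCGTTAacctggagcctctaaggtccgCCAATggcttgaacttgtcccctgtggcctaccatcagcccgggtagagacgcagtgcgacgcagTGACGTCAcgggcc
Ndufa10: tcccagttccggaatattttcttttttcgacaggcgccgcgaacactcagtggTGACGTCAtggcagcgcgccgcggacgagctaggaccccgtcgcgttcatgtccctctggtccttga

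**Figure D4:**
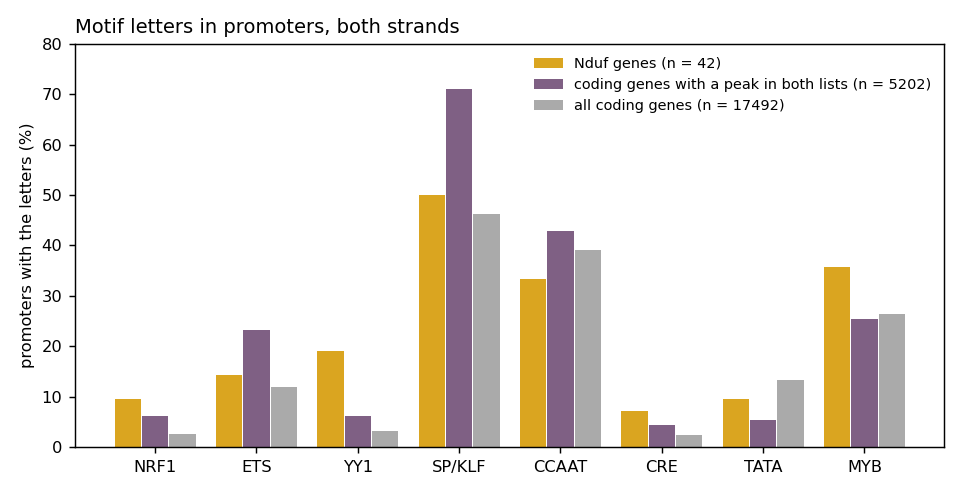
Share of promoters (%) that hold the letters of each motif on either strand, for 42 Nduf genes, 5202 protein-coding genes with a peak in both lists and 17492 protein-coding genes with a promoter entry. The YY1 word stands at 19.0% of Nduf promoters, 6.23% of genes in both lists and 3.22% of all genes.

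The YY1 word AAGATGGC was in 8 of 42 promoters (19.0%), against 3.22% of all genes and 6.23% of the genes in both lists. In all 8 it lay on the gene's own strand just after the start, between positions 11 and 46. Counted at such positions only, a choice made after the sites were seen, it was in 1.37% of all genes and 2.96% of the genes in both lists. The word contains an ATG, and whether that is the start codon of these genes was not tested. The windows below run from 10 bases before the word to 4 after it, with the word in capitals, to show the bases on either side of it in each member.
Ndufs7: ggccgaggccAAGATGGCggcg
Ndufs6: ggtcaccggcAAGATGGCggcg
Ndufs4: tgcctacaggAAGATGGCggcg
Ndufaf8: ggcagggcccAAGATGGCggcg
Ndufa9: attgtgggagAAGATGGCggcc
Ndufc1: cctgcggaacAAGATGGCgccg
Ndufb8: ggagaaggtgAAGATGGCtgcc
Ndufa3: cgccaagaacAAGATGGCcggg

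These windows lie, in the same order, at chr10:80249463-80249484 (plus strand), chr13:73328438-73328459 (minus), chr13:114388048-114388069 (minus), chr11:120098934-120098955 (plus), chr6:126849104-126849125 (minus), chr3:51408922-51408943 (minus), chr19:44555393-44555414 (minus) and chr7:3617385-3617406 (plus). The genes came from all classes: 5 were in both lists, Ndufs6 and Ndufs7 in the knockout list alone, and Ndufa3 in neither.

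Assembly factors of complex I whose symbols do not start with Nduf were counted in the same way. Of 11 listed, 10 matched the gene table, all but Coa1. In both lists were 6 (60%, against 28.6% of all genes), in the knockout list alone 3 (30%, against 9.81%) and in neither 1 (10%, against 57.0%). The control list alone held 0 (upper bound of the Wilson interval 27.8%), against 4.66% of all genes. With 10 genes this 0 cannot be told from the share of all genes. Ecsit, a scaffold of membrane-arm assembly, had peaks of 807 and 905 bp, Foxred1 of 1023 and 694 bp, Timmdc1 of 293 and 701 bp, and Tmem126b of 823 and 650 bp. Nubpl, which delivers iron-sulfur clusters to complex I, had 285 bp in the knockout list alone, where Dmac1 (572 bp) and Lyrm2 (496 bp) also stood. Acad9, a partner of Ecsit, was in neither list. Among 48 genes of complexes II to V, 29 (60.4%) were in both lists, 4 in the knockout list alone, 5 (Atp5k, Atp5l, Cox8c, Sdhd and Uqcrb) in the control list alone, while 10 had no peak. Of 78 mitochondrial ribosomal protein genes, 47 (60.3%) were in both, 15 in the knockout list alone and 6 in the control list alone. Complex I thus had the larger share in both lists, 73.5%, but the Wilson intervals of the 3 groups (59.7 to 83.8, 46.3 to 73.0 and 49.2 to 70.4) overlap, and the differences were not tested.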

How the data were processed

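The members and gene lists were chosen with earlier results of these data known. Per the submitters' processing notes, the build was mm10 and the tools were MACS2 2.2.4, Picard 2.20.7, Bowtie2 2.3.4.3 and cutadapt 2.5. The sources used here do not give their roles, the peak threshold, any duplicate filter, any shift for the Tn5 cut or any pooling of replicates. The authors deposited each list as 3 columns (chromosome, start, end), and 1 list per genotype was used. The labels' other 2 libraries were not analysed here. Repeated lines were counted once (29656 lines gave 21004 intervals in the knockout list, 24167 gave 15376 in the control list). Positions are 1-based. Genes, starts and promoters came from RefSeq tables of GRCm38.p6. A gene's width is that of its widest interval within 1 kb of an end. Named genes are the core, the assembly factors, X-linked and 1-list genes, those in neither list and the extremes of width and width ratio. Others illustrate their class, and 1 member, kept in the counts, is not reported by name here. On simulated intervals, 200 of 200 inside and 200 of 200 outside the window were placed rightly, and bedtools 2.31.1 gave the same 79 member and list pairs. Python 3.11.15, numpy 2.4.6, pandas 2.3.3, scipy 1.17.1 and matplotlib 3.10.9 were used.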

Additional observations from a re-analysis of the deposited data

How the results depend on the processing

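Of 43 alternative values, 34 stayed near the main one, meaning a count within 1.5 times of it or a median inside its order-statistic 95% interval. With intervals listed at least 2 times, 18 members were in both lists, 7 in the knockout list alone, 9 in the control list alone, and 15 had no peak (all genes: 15.9%, 7.71%, 6.56% and 69.9%), the median knockout width was 760 bp, and the median log2 width ratio was 0.16 in place of -0.04. With intervals at least 300 bp wide, 4 members were in the knockout list alone and 3 in the control list alone (Ndufb2, Ndufb3 and Ndufb10). The knockout peaks of these 3 were 277, 292 and 232 bp wide, so the cut removed them. With the transcription start only, 4 of 42 members with a start were in the knockout list alone, and all 4 were there before. The other genes of that class, Ndufa4l2, Ndufaf6 and Ndufb4c, have no annotated start and could not be counted. The control list alone held 1 member with the 3 kb window and 1, Ndufb10, with equal numbers of the widest intervals. The cause of the other changes was not tested. Of the 36 members in both lists, 15 stayed there under every count alternative, and Ndufa2 and Ndufs1, to which the start-only setting could not be applied, under the others. No paired analysis was possible because only 1 list per genotype was used and no test was run. The unknown depth of each list limits every statement about a missing peak.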

Other observations

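The gene table also holds 5 Nduf entries that are pseudogenes (Ndufa11b, Ndufa12-ps, Ndufab1-ps, Ndufs5-ps and Ndufs6b), and all 5 were without a gene-end peak in either list. Of all protein-coding genes, 57.0% were also in neither list. The share over other pseudogenes was not counted, so 5 entries do not set the Nduf pseudogenes apart.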
